A study of Arabidopsis thaliana with 18 samples.

Results

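The cytosolic ribosomal proteins of the small (40S) subunit were followed by gene through 12 h of estrogen treatment in Arabidopsis thaliana suspension cells. A list of 60 loci in 26 protein families was matched by locus code to the array annotation. For 35 of the 60 loci the annotation gave a probe set that names 1 gene, with 1 such probe set per locus, and these 35 genes in 20 families are the members described here, out of 13286 genes with such a probe set; the array has 22810 probe sets in all. Of the other loci, 10 were found only on probe sets shared by several genes and 15 had no named probe set. No listed gene of the S5, S6, S16, S18, S20 and S23 families therefore has a value here. For S20, AT3G47370 from outside the list was read and is given further on. Genes are named by locus, and the family of each (S2, S27a and so on) is background knowledge of the Arabidopsis families, since the annotation table used here gave no family for most of them. 12 families had at least 2 measured members.

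The small subunit holds the messenger RNA and checks the pairing of each codon with its transfer RNA, and the large (60S) subunit joins amino acids. Each protein of the plant cytosolic ribosome is encoded by a small family of paralogues whose products are very similar or the same. Ribosomal protein genes are known for high transcript levels in growing and dividing plant cells, where new ribosomes are assembled in the nucleolus. Positions within the subunit given below are known from yeast ribosome structures.

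The study compared 3 cell lines at 2 times, with 3 arrays in each of the 6 groups. The lines were wild-type cells (wt) and cells carrying an estrogen-inducible VND6 or SND1 transgene; VND6 and SND1 are NAC transcription factors known for switching on xylem vessel and fibre secondary wall programmes. All lines, wt included, received 2 µM estrogen, and cells were taken at 0 h and again 12 h later. There was no group kept for 12 h without estrogen, so the effects of estrogen, of time in culture and of handling cannot be told apart, and the transgene's part shows only as a difference from wt. Where the replicates came from is not given in the labels, so p-values measure the spread between these arrays, which may be technical.

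Values were deposited array signals on a linear scale. Array maxima lay between 33510 and 53986, and the 35 genes lay between 21.2 and 34414; whether the brightest probe sets respond less than in proportion was not tested. Replicates 2 and 3 of each group resembled each other (Spearman correlation 0.984 to 0.991 over the tested probe sets) more than either resembled replicate 1 (0.872 to 0.958). The labels name 2 labelling kits without tying them to arrays. All 35 genes were among the 15715 probe sets tested, and 34 of them were at or above the 40th percentile of the array on all 18 arrays. The exception was AT2G39590, which was below it on all 3 wt arrays at 0 h and on 1 of 3 SND1 arrays at 0 h. To see whether the lines responded, 4 genes of a secondary wall and xylem list with a 1-gene probe set were read. They were AT3G45010 (SCPL48), AT4G18425 (DMP4), AT5G66390 (PRX72) and AT3G50220 (IRX15). The other listed genes, XCP1, XCP2, CESA4, CESA7, CESA8 and MYB46, had no such probe set. All 4 rose over 12 h in VND6 cells and 3 of 4 in SND1 cells, where 28.8% and 27.8% of all tested probe sets rose. In wt cells none rose and 2 fell, where 32.1% rose and 22% fell. The lists were chosen with earlier results of these data known, so this is no independent check. The VND6 and SND1 transcripts themselves were not analysed here. Signals of different probe sets are not comparable in level, so genes are compared only by their changes.

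The small-subunit genes rose together over the 12 h in all lines, wt included. In wt cells 35 of 35 were higher at 12 h than at 0 h at an adjusted p under 0.05 and 0 were lower, where 32.1% of all tested probe sets were called higher and 22% lower. In VND6 cells 30 of 35 rose and 0 fell, against 28.8% and 24.7% of all tested probe sets. In SND1 cells 32 rose and 0 fell, against 27.8% and 22.8%. At an unadjusted p under 0.05, 35, 32 and 33 genes differed between the times in wt, VND6 and SND1 cells, all of them upward. Shares of all tested probe sets were taken at the adjusted threshold only. Counts at an unadjusted p, here and below, therefore have no share to be set against. The median log2 change of the 35 genes was 2.04 in wt cells (range 0.65 to 6.25), 1.28 in VND6 cells (0.06 to 4.85) and 1.40 in SND1 cells (0.29 to 5.07), beside medians of 0.20, 0.08 and 0.07 over all tested probe sets. Every 12 h array lay above every 0 h array for 35 genes in wt, 31 in VND6 and 34 in SND1, an ordering met by 35.1%, 31.4% and 36.1% of all tested probe sets. Because the RNA came from whole cultures, more RNA per cell and more cells that make the transcript cannot be told apart.

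**Figure D1:**
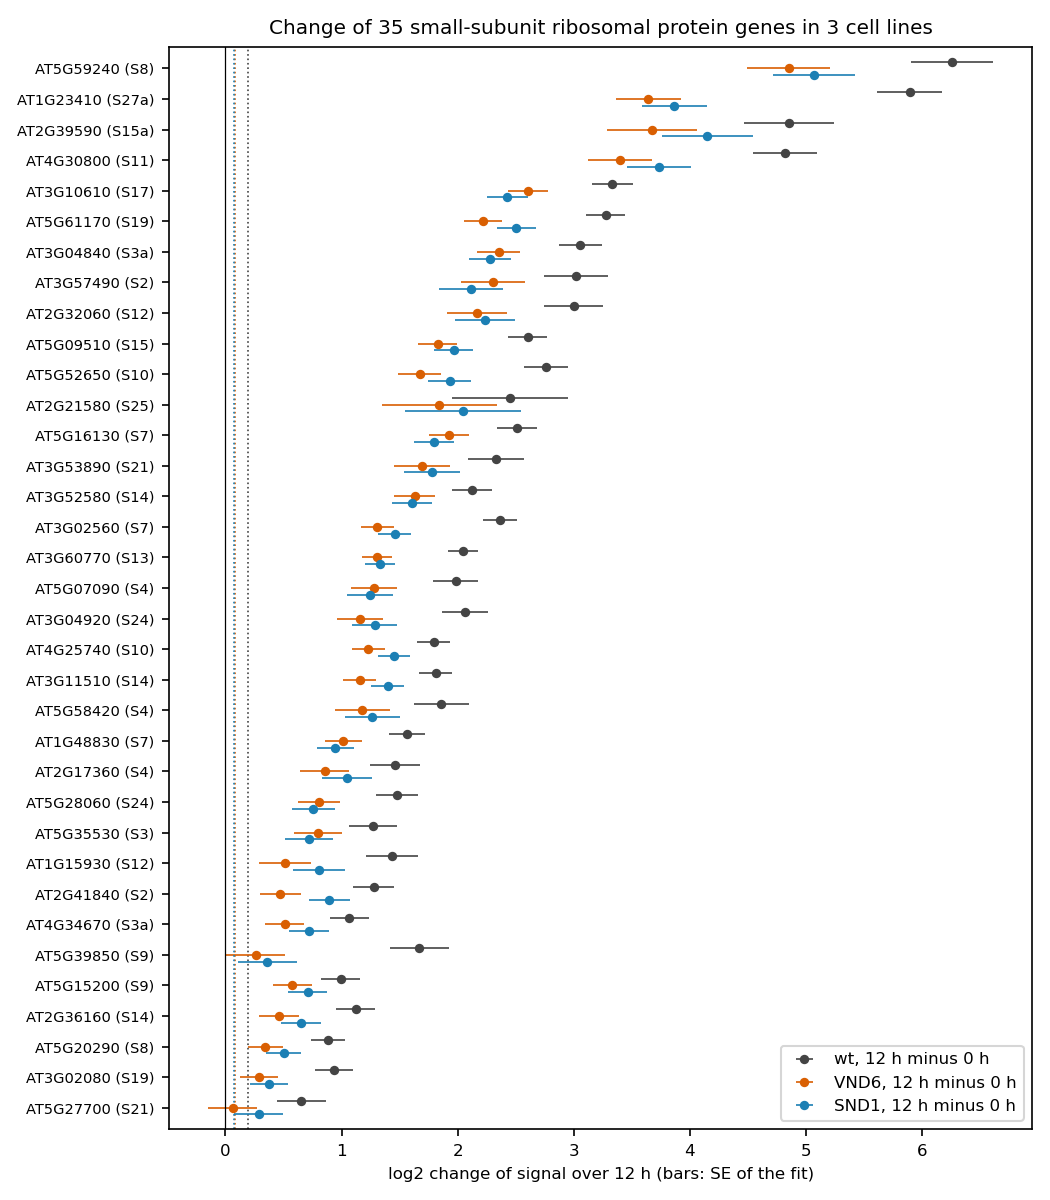
Log2 change of signal from 0 h to 12 h for each of the 35 small-subunit ribosomal protein genes (rows, ordered by the mean of the 3 lines) in wt, VND6 and SND1 cells; points are fitted changes from 3 arrays at each time, bars their standard errors, and dotted lines the median over all tested probe sets in each line. The wt point lies to the right of the other points in all 35 rows, and 4 genes lie apart at the top with wt changes above 4.

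The summed signal of the 35 genes was taken as a share of all signal on each array. It was 0.834% ± 0.0125 (SD, n = 3) in wt cells at 0 h and 2.65% ± 0.127 at 12 h. In VND6 cells it was 1.23% ± 0.0643 and 2.50% ± 0.352, and in SND1 cells 1.05% ± 0.0503 and 2.30% ± 0.0342. The groups did not overlap between the times in any line. At 0 h both transgenic lines lay above wt on every array. At 12 h the VND6 arrays, at 2.27% to 2.90%, overlapped the wt arrays at 2.53% to 2.78%, and the SND1 arrays, at 2.28% to 2.34%, lay below them.

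**Figure D2:**
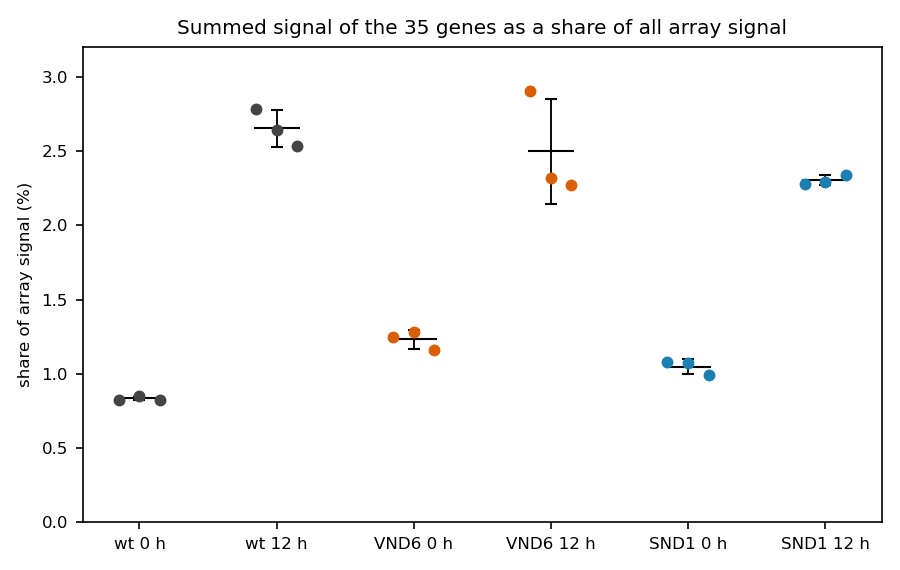
Summed signal of the 35 genes as a percentage of all signal on the array (vertical axis, starting at 0) in the 6 groups; points are single arrays, horizontal lines group means and bars 1 SD of 3 arrays. The 0 h arrays lie at or below 1.28% and the 12 h arrays at or above 2.27%, and 1 VND6 array at 12 h lies at 2.90%, apart from the other VND6 arrays.

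The sizes differed widely among the genes. In wt cells the log2 change passed 1 in 31 genes, 2 in 18, 3 in 8 and 4 in 4; in VND6 cells the numbers were 23, 9, 4 and 1, and in SND1 cells 23, 10, 4 and 2. The order of the genes was nearly the same in each line: across the 35 genes, Pearson's r between the changes was 0.977 for wt and VND6, 0.980 for wt and SND1 and 0.990 for VND6 and SND1 (Spearman's rho 0.965, 0.966 and 0.982). These describe the genes and are no test, since genes are not replicates and every line was read with the same probe sets.

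Among proteins of the head and beak of the subunit, the largest change was that of AT1G23410, an S27a gene; S27a is made as a fusion to ubiquitin that is cut after synthesis. AT1G23410 in wt cells gave signals of 83.6, 107 and 61.4 at 0 h and 4739, 5737 and 4947 at 12 h. AT1G23410 in VND6 cells gave 546, 380.4 and 293 at 0 h and 5857, 4199 and 4976 at 12 h. AT1G23410 in SND1 cells gave 226, 420.1 and 299 and then 3508, 4563 and 5725. The times did not overlap in any line, the 12 h signals of the lines overlapped each other, and at 0 h every wt array lay below every array of the other lines. The log2 changes were 5.89 in wt, 3.64 in VND6 and 3.87 in SND1 (SE 0.28 each), with adjusted p of 2.93e-10, 3.69e-08 and 2.93e-08. Changes were taken on log2(signal + 4.32), which understates those of dim genes. Other measured head proteins with large changes were S17 and S15, given here, S25, and S19, S12 and S10, given with their paralogues. AT3G10610 (S17) gave 881, 1020 and 925 in wt cells at 0 h and 8787, 10170 and 9636 at 12 h. AT3G10610 in VND6 cells gave 1463, 1259 and 1156, then 9539, 7518 and 6743, and in SND1 cells 1029, 1537 and 1351, then 6353, 7276 and 7261. The times were far apart in all lines, with log2 changes of 3.33, 2.61 and 2.43 (SE 0.18) in wt, VND6 and SND1. AT5G09510 (S15, whose tail reaches the decoding centre) in wt cells gave 1012, 1274 and 1189 at 0 h and 8491, 6836 and 5974 at 12 h. AT5G09510 in VND6 cells gave 1718, 1909 and 1622, then 7048, 5622 and 6037, and in SND1 cells 1180, 1462 and 1209, then 5072, 5388 and 4588. Its times did not overlap in any line, and it rose by 2.60, 1.83 and 1.97 (SE 0.17), in the same order.

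AT2G21580 (S25, known in yeast and human cells for its part in initiation at viral internal entry sites) had the largest standard error of the members. AT2G21580 in wt cells gave 640.2, 2032 and 1511 at 0 h and 4005, 8651 and 9342 at 12 h. AT2G21580 in VND6 cells gave 999.8, 2340 and 2028 and 4155, 7000 and 7567, and in SND1 cells 682, 2272 and 1636 and 4132, 6530 and 6665, at 0 h and 12 h. Replicate 1, listed first, was the lowest of the 3 in every one of the 6 groups, and even so the times did not overlap in any line. The changes were 2.45, 1.84 and 2.05 (SE 0.50), with adjusted p of 0.000561, 0.00522 and 0.00269.

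In the body of the subunit, 3 genes with low signals at 0 h changed most. AT5G59240, an S8 gene, had the largest change of the 35. AT5G59240 in wt cells gave 57.1, 119.5 and 114 at 0 h and 5301, 9281 and 8105 at 12 h. AT5G59240 in VND6 cells gave 186, 212 and 147, then 6909, 4913 and 4395. AT5G59240 in SND1 cells gave 103, 240.4 and 214, then 4122, 7137 and 7341. Its dimmest wt array at 0 h, and that of AT1G23410 at 61.4, were close to the 40th percentile of the wt arrays (51.0 to 51.3), so the wt folds of these genes too rest on signals near background. The dimmest AT5G59240 signal at 12 h, 4122, lay far above the brightest 0 h array, at 240.4. That is a 76.4-fold rise in wt cells (log2 6.25, SE 0.35), 28.8-fold in VND6 cells (log2 4.85) and 33.5-fold in SND1 cells (log2 5.07), with adjusted p of 1.66e-09, 2.31e-08 and 2.23e-08. AT4G30800 (S11) gave 160.4, 195 and 235 in wt cells at 0 h and 5883, 5737 and 5229 at 12 h. AT4G30800 in VND6 cells gave 442, 419.8 and 354, then 5967, 3274 and 4045, and in SND1 cells 189.5, 447 and 369, then 4022, 4270 and 4473. The dimmest 12 h array, at 3274, lay far above the brightest 0 h array, at 446.6, and the log2 changes were 4.82, 3.40 and 3.74 (SE 0.27) in wt, VND6 and SND1.

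AT2G39590 is an S15a gene and the only member below the 40th percentile of the array in any group. AT2G39590 in wt cells gave 43.3, 30.6 and 21.2 at 0 h, below the 40th percentile of each array (51.0 to 51.3), and 815, 1194 and 1042 at 12 h. AT2G39590 in VND6 cells gave 176, 90.4 and 128, then 2417, 1235 and 1574. AT2G39590 in SND1 cells gave 45.6, 139 and 95.8, then 1067, 1892 and 1971. The times were apart in every line, and 1 SND1 array at 0 h was nearly as dim as the wt arrays. The log2 changes were 4.86, 3.68 and 4.15 (SE 0.39), with adjusted p of 4.77e-08, 1.13e-06 and 3.65e-07; the fold depends on signals near background in wt.

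At the other end, 6 genes had the smallest mean changes over the lines. AT5G27700 (S21) gave 10960, 8977 and 9009 in wt cells at 0 h and 18486, 13527 and 13836 at 12 h. AT5G27700 in VND6 cells gave 14589, 13149 and 10969, then 18917, 11769 and 10772, and in SND1 cells 12402, 9864 and 8743, then 14046, 11439 and 12046. The times overlapped in VND6 and SND1 cells and not in wt cells. Its log2 change was 0.65 in wt (adjusted p = 0.0145), 0.06 in VND6 (adjusted p = 0.821) and 0.29 in SND1 (adjusted p = 0.275; SE 0.21 each). The wt call was lost without wt replicate 1 at 12 h (0.51, adjusted p = 0.0713), under quantile normalization (0.43, adjusted p = 0.0702) and with replicates 2 and 3 averaged (0.68, adjusted p = 0.0993). The other genes of this kind were AT3G02080 (S19), AT5G20290 (S8), AT2G36160 (S14), and AT5G15200 and AT5G39850 (both S9). AT5G15200 gave 13254, 11756 and 13435 in wt cells at 0 h and 29094, 24807 and 22877 at 12 h, a log2 change of 0.99 (SE 0.17); the times did not overlap. AT5G15200 in VND6 cells gave 16790, 18344 and 16593, then 34414, 24811 and 19844, and in SND1 cells 15088, 13486 and 12699, then 23753, 20205 and 23548. Its change was 0.58 in VND6 and 0.71 in SND1, both past the threshold. Without VND6 replicate 1 at 12 h, the brightest array for this gene at 34414, its VND6 change was 0.36 and still passed. AT2G36160 in wt cells gave 6797, 6294 and 6479 at 0 h and 16436, 13566 and 12807 at 12 h. AT2G36160 in VND6 cells gave 10146, 10773 and 8603, then 18320, 12183 and 11054, and in SND1 cells 8192, 7334 and 7019, then 12550, 11311 and 11519. Its times did not overlap in any line, though in VND6 cells they lay close, with replicate 1 at 12 h apart from the others.

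The members between these ends included AT5G35530, an S3 gene at the mRNA entry, which rose by 1.27, 0.80 and 0.72 (SE 0.21) in wt, VND6 and SND1. AT3G60770 (S13) in wt cells gave 4148, 3923 and 4300 at 0 h and 19760, 16366 and 15178 at 12 h. It had the smallest standard error of the 35, and rose by 2.04, 1.30 and 1.33 (SE 0.13). The S10 genes AT5G52650 and AT4G25740 rose by 2.76 and 1.79 in wt, 1.67 and 1.23 in VND6 and 1.93 and 1.45 in SND1. The S7 genes AT5G16130, AT3G02560 and AT1G48830 rose by 2.51, 2.37 and 1.56 in wt cells, and all 3 rose in the other lines too.

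In VND6 cells 5 genes did not pass the test, and in SND1 cells 3. Besides AT5G27700 they were AT5G39850 (adjusted p 0.412 in VND6 and 0.26 in SND1) and AT3G02080 (0.151 and 0.0646), and in VND6 alone AT5G20290 (0.0652) and AT1G15930 (0.0667). With the replicate number as a block, AT1G15930 passed in VND6 (adjusted p = 0.0261) and AT3G02080 in SND1 (adjusted p = 0.0294). AT2G36160 and AT2G41840 (S2) passed in VND6 cells with changes of 0.46 and 0.47, but without VND6 replicate 1 at 12 h their changes were 0.24 (adjusted p = 0.17) and 0.26 (adjusted p = 0.178). AT4G34670 (S3a) lost its VND6 call without that array (0.37, adjusted p = 0.0867) or without VND6 replicate 1 at 0 h (0.44, adjusted p = 0.062). AT2G41840 also lost it without VND6 replicate 2 or 3 at 0 h, and AT2G36160 without VND6 replicate 3 at 0 h. The other 27 VND6 calls and all 32 SND1 calls held when any 1 array was left out.

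AT5G39850 (S9, which lies at the entry of the mRNA channel) passed the test in wt and not in the other lines; the difference between the lines is tested further on. AT5G39850 in wt cells gave 1592, 2226 and 2414 at 0 h and 7402, 6439 and 5827 at 12 h. AT5G39850 in VND6 cells gave 3216, 5083 and 4561, then 7911, 4467 and 3620. AT5G39850 in SND1 cells gave 2785, 3630 and 3342, then 4260, 3844 and 4360. The times were well apart in wt, close but separate in SND1, and overlapping in VND6, where replicate 1 went up by 1.30 and the mean of replicates 2 and 3 went the other way, at -0.26. Its log2 changes were 1.67 in wt (adjusted p = 4.07e-05), 0.26 in VND6 and 0.36 in SND1 (SE 0.26).

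Paralogues of the same protein changed by different amounts. The log2 ratio of 2 paralogues was taken on each array, and its change from 0 h to 12 h, averaged over the 3 lines, was tested by an exact two-sided permutation of the times within each line (8000 arrangements, smallest possible p 0.00025). In the 12 families with at least 2 measured genes there were 18 pairs, and 16 differed in their change at an adjusted p under 0.05 over the 18 pairs. For 10 pairs the ratios of the 9 arrays at 0 h and the 9 at 12 h did not overlap. A difference in change says only that the genes changed unequally, and the pair is written with the gene that rose more first. Cross-hybridisation between similar paralogues was not tested.

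The S8 pair was the most unequal. Beside AT5G59240, described above, AT5G20290 in wt cells gave 14734, 13164 and 15236 at 0 h and 29539, 25684 and 24428 at 12 h. AT5G20290 in VND6 cells gave 18178, 23422 and 22464, then 33556, 25526 and 22736, and in SND1 cells 17510, 16249 and 16053, then 24827, 21414 and 24387. It rose by 0.88 in wt and 0.50 in SND1, and its VND6 arrays overlapped between the times (0.34). The log2 change of AT5G59240 exceeded that of AT5G20290 by 4.81 on average (5.37 in wt, 4.51 in VND6 and 4.56 in SND1; exact p = 0.00025, adjusted p = 0.000321, the smallest these permutations can give). The signals of AT5G20290 lay between 13164 and 33556, near the top of the array's range, and whether its probe set responds in proportion there was not tested.

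The S19 pair came next; S19 is a head protein whose loss causes a hereditary anaemia in humans. AT5G61170 in wt cells gave 1314, 1664 and 1833 at 0 h and 18153, 15354 and 13154 at 12 h. AT5G61170 in VND6 cells gave 3423, 3512 and 3168, then 18737, 14732 and 13995, and in SND1 cells 2015, 2336 and 2500, then 13549, 12452 and 12807. Its times were far apart, with changes of 3.28, 2.22 and 2.50 (SE 0.17) in wt, VND6 and SND1. Its paralogue AT3G02080 in wt cells gave 8816, 7027 and 7325, then 17061, 14450 and 12948. AT3G02080 in VND6 cells gave 10831, 12383 and 10816, then 17241, 11935 and 12831, and in SND1 cells 10942, 9574 and 8311, then 12835, 11607 and 12848. The times of AT3G02080 overlapped in VND6 cells, and its changes were 0.94, 0.29 and 0.38. The pair differed in its change by 2.13 (exact p = 0.00025, adjusted p = 0.000321), and the per-line differences were 2.34, 1.93 and 2.13.

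On the platform side of the subunit, the S3a and S21 pairs were also unequal. AT3G04840 (S3a) in wt cells gave 2067, 2122 and 1556 at 0 h and 18713, 14976 and 14114 at 12 h. AT3G04840 in VND6 cells gave 3949, 3517 and 2718, then 20924, 16011 and 15059, and in SND1 cells 2683, 3312 and 2859, then 14936, 13378 and 14564. The times were apart in all lines, with changes of 3.06, 2.35 and 2.28 (SE 0.18). AT4G34670 in wt cells gave 8872, 6680 and 7768, then 19662, 15306 and 14116. AT4G34670 in VND6 cells gave 11619, 13957 and 12975, then 22224, 16774 and 16308, and in SND1 cells 11702, 9092 and 8954, then 17200, 15456 and 16014. AT4G34670 rose less in every line, by 1.07, 0.51 and 0.72, and the pair differed by 1.80. AT3G53890 (S21) in wt cells gave 6400, 2898 and 2869 at 0 h, with replicate 1 well above the others, and 20363, 18560 and 17940 at 12 h. AT3G53890 in VND6 cells gave 5671, 5101 and 4800, then 21062, 15381 and 14490, and in SND1 cells 5118, 4647 and 4349, then 16901, 15749 and 15753. Its changes of 2.33, 1.69 and 1.78 exceeded those of AT5G27700 by 1.60 on average. Both pairs had an exact permutation p of 0.00025 (adjusted p = 0.000321).

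**Figure D3:**
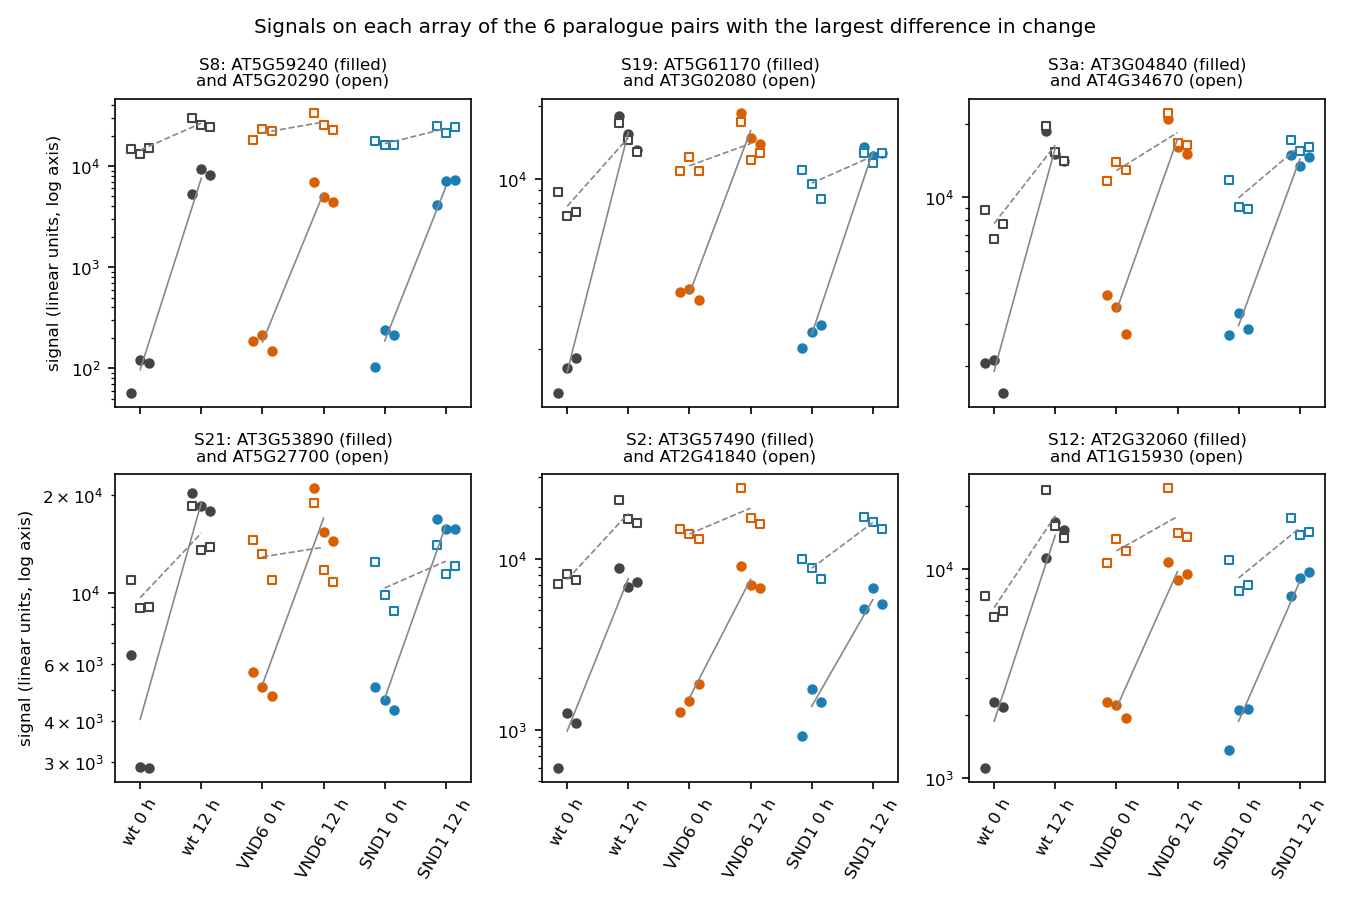
Signal on each array (vertical log axis, linear array units) at 0 h and 12 h in the 3 lines for the 6 paralogue pairs with the largest difference in change; filled circles are the gene that rose more, open squares its paralogue, and lines join group means over 3 arrays. In each panel the line of the filled circles is steeper, and levels of the paralogues are not comparable because their probe sets differ.

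At the entry of the mRNA channel, the S2 genes differed as well. AT3G57490 in wt cells gave 597, 1260 and 1089 at 0 h and 8783, 6878 and 7321 at 12 h. AT3G57490 in VND6 cells gave 1269, 1480 and 1856, then 9034, 6992 and 6719, and in SND1 cells 914, 1741 and 1449, then 5112, 6734 and 5444. It rose by 3.02, 2.31 and 2.11 (SE 0.28) in wt, VND6 and SND1. AT2G41840 in wt cells gave 7084, 8107 and 7499, then 22006, 17218 and 16130. AT2G41840 in VND6 cells gave 14995, 13908 and 13039, then 25985, 17372 and 16077, and in SND1 cells 9935, 8866 and 7629, then 17623, 16334 and 14974. It rose by 1.28, 0.47 and 0.89, and the pair differed in its change by 1.60. The S12 pair in the beak differed by 1.55. AT2G32060 in wt cells gave 1116, 2301 and 2186, then 11191, 16772 and 15385; in this group at 12 h replicate 1 was the lowest. AT2G32060 in VND6 cells gave 2298, 2229 and 1941, then 10821, 8861 and 9395, and in SND1 cells 1355, 2120 and 2126, then 7425, 8991 and 9638. It rose by 2.999, 2.17 and 2.24 (SE 0.26). AT1G15930 in wt cells gave 7367, 5869 and 6296, then 23695, 16004 and 14076, with replicate 1 the highest at both times. AT1G15930 in VND6 cells gave 10596, 13818 and 12087, then 24301, 14765 and 14207, and in SND1 cells 10947, 7809 and 8330, then 17443, 14524 and 15052. Its changes were 1.43 in wt and 0.81 in SND1, where it passed, and 0.51 in VND6, where it did not. Both pairs had an exact permutation p of 0.00025 (adjusted p = 0.000321).

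Smaller differences were found in S14, S7, S10, S24 and S4. In the S14 family of the platform, AT3G52580 rose by 2.12, 1.63 and 1.61, AT3G11510 by 1.81, 1.16 and 1.40, and AT2G36160 by 1.12, 0.46 and 0.65. The 3 pairwise differences were 1.04, 0.71 and 0.33, each with an exact permutation p of 0.00025. In the S7 family, AT5G16130 exceeded AT1G48830 by 0.90 and AT3G02560 by 0.37 (exact p = 0.0085, adjusted p = 0.00956), and AT3G02560 exceeded AT1G48830 by 0.54. AT5G52650 exceeded AT4G25740, both S10, by 0.63, with 0.97 in wt beside 0.44 in VND6 and 0.48 in SND1. AT3G04920 exceeded AT5G28060, both S24, by 0.49; the signals of AT3G04920 went from 1646, 2105 and 1700 to 7451, 7158 and 8081 in wt cells and those of AT5G28060 from 3272, 3642 and 2830 to 8762, 9803 and 8551. AT3G04920 in VND6 cells gave 2365, 4026 and 3201, then 7723, 6390 and 6897, and in SND1 cells 2352, 2992 and 2362, then 4996, 7164 and 6725. AT5G28060 in VND6 cells gave 3572, 4867 and 4464, then 7473, 6795 and 8163, and in SND1 cells 3958, 4517 and 3411, then 5115, 7441 and 7755. For both genes the times did not overlap in any line. In VND6 and SND1 cells AT3G04920 rose by 1.16 and 1.28 and AT5G28060 by 0.81 and 0.76.

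The 2 pairs that did not pass were in the S4 and S9 families. For S4, a body protein, AT5G07090 in wt cells gave 3011, 5190 and 3808 at 0 h and 15419, 15282 and 15590 at 12 h. AT5G58420 in wt cells gave 3117, 6254 and 5520, then 15805, 17795 and 18329, and AT2G17360 gave 1986, 4256 and 3583, then 8012, 8825 and 8933. All 3 were dimmest in replicate 1 among the wt arrays at 0 h, and all 3 rose in every line, AT5G07090 by 1.98, 1.28 and 1.24. AT5G07090 in VND6 cells gave 5868, 5100 and 4756, then 15375, 10968 and 12131, and in SND1 cells 4370, 6122 and 4388, then 11423, 12812 and 10674. AT5G58420 in VND6 cells gave 7304, 6743 and 6062, then 18370, 13841 and 13626, and in SND1 cells 4709, 7641 and 6264, then 12012, 16421 and 15847. AT2G17360 in VND6 cells gave 4121, 4613 and 4113, then 8256, 7269 and 7696, and in SND1 cells 3294, 4259 and 3435, then 6897, 8472 and 7283. The times of all 3 genes were apart in these lines as in wt. AT5G58420 rose by 1.86, 1.18 and 1.26, and its change lay 0.07 from that of AT5G07090 (exact permutation p = 0.392, adjusted p = 0.415). AT2G17360 rose by 1.46, 0.85 and 1.05, less than AT5G07090 by 0.38 (exact p = 0.00025) and less than AT5G58420 by 0.31 (exact p = 0.0015). For S9, the mean difference between AT5G39850 and AT5G15200 was 0.0039 (exact permutation p = 0.989), but it was made of 0.68 in wt, -0.32 in VND6 and -0.35 in SND1, so a mean near 0 does not show that these genes changed alike.

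**Figure D4:**
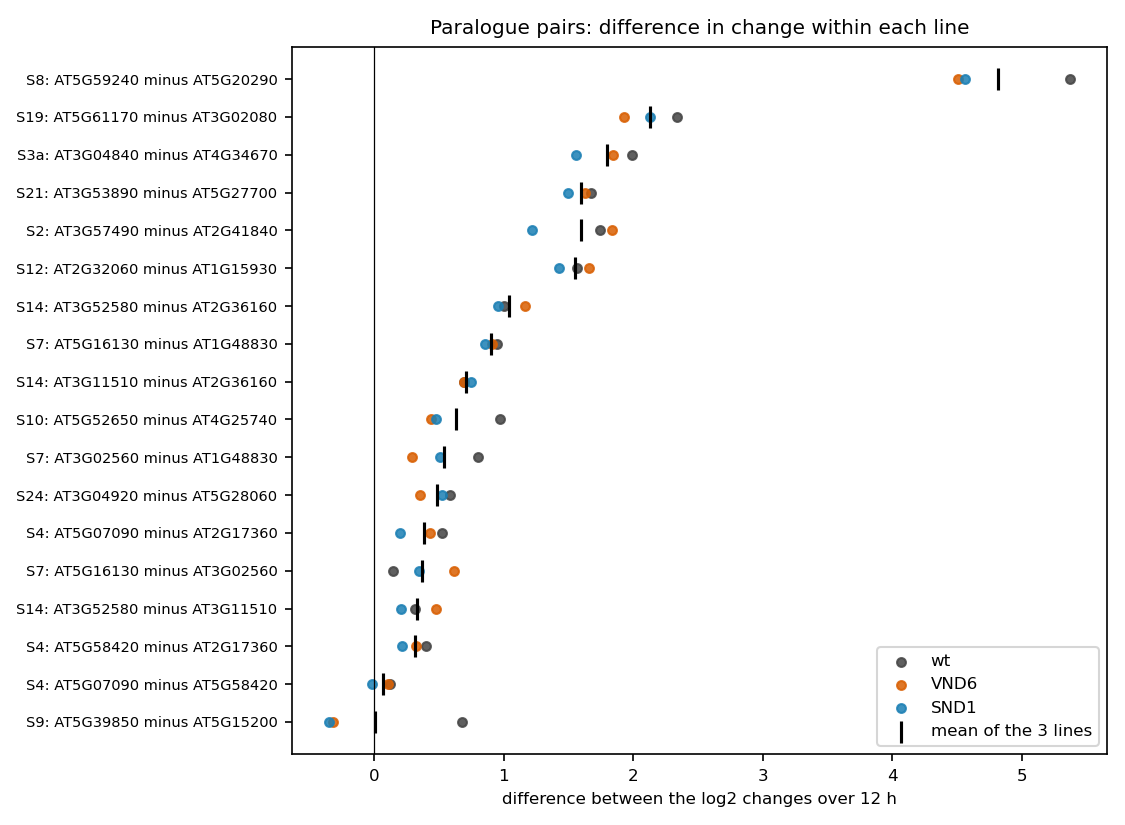
Difference between the log2 changes of the 2 genes of each of the 18 paralogue pairs (rows) over 12 h, in wt, VND6 and SND1 cells (points) and as the mean of the 3 lines (black bars). The S8 pair lies near 4.81 and apart from the rest, and the S9 pair is split, with wt at 0.68 and the other lines below 0.

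At 0 h many small-subunit genes were already higher in VND6 cells than in wt, and a few were higher in SND1 cells. In VND6 cells 20 of 35 genes were higher than in wt and 0 lower, where 4.8% of all tested probe sets were higher and 3.72% lower. In SND1 cells 4 were higher and 0 lower, against 1.88% and 0.465%. At an unadjusted p under 0.05 the numbers were 29 and 14, all higher, with no share of all tested probe sets taken at that threshold. Every VND6 array lay above every wt array for 27 genes and every SND1 array for 17, an ordering met by 13.4% and 14.9% of all tested probe sets. All 35 genes had a positive difference in both lines; the median was 0.60 in VND6 (range 0.27 to 2.21) and 0.35 in SND1 (0.04 to 1.84), beside 0.04 and 0.10 over all tested probe sets. The comparisons share the wt arrays, so they are not independent of each other. The numbers of calls depended on how the spread was estimated: with only the 6 arrays compared in the fit, or with replicates 2 and 3 averaged, 0 genes passed in either line. Few of the 15715 tested probe sets passed in those fits, members or not. Only the arrays compared called 45 in VND6 and 1 in SND1, and averaging called 0 in each line. The main fit called 1338 and 368, in either direction. With the replicate number as a block, AT3G04840 (S3a) also passed in SND1 (adjusted p = 0.0378; 0.0915 without the block).

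The largest 0 h difference was that of AT1G23410 (S27a), at 2.21 in VND6 (SE 0.28, adjusted p = 0.000468) and 1.84 in SND1 (adjusted p = 0.0028). AT2G39590 (S15a) was below the 40th percentile on all 3 wt arrays at 0 h, so its differences are taken against signals near background and their size is uncertain. The fit gave 1.91 in VND6 (SE 0.39, adjusted p = 0.00763); in SND1 its difference of 1.36 did not pass (adjusted p = 0.0844). AT5G52650 (S10) in wt cells at 0 h gave 2009, 1441 and 1566, in VND6 cells 4115, 3942 and 2921 and in SND1 cells 2813, 2784 and 2783. No array of the other lines overlapped those of wt, and the differences were 1.13 (adjusted p = 0.00284) and 0.75 (adjusted p = 0.0471). AT3G02560 (S7) at 0 h gave 2964, 2461 and 2509 in wt, 4909, 6711 and 5343 in VND6 and 4691, 4426 and 3996 in SND1. Its differences were 1.09 (adjusted p = 0.000565) and 0.73 (adjusted p = 0.016). The remaining SND1 call was AT3G60770 (S13, at the contact with the large subunit), with 0.51 in SND1 (adjusted p = 0.0496) and 0.69 in VND6 (adjusted p = 0.00477). AT5G59240 differed by 0.93 in VND6 and 0.89 in SND1, and neither passed (adjusted p = 0.115 and 0.232). Of the calls, 8 of 20 in VND6 and 1 of 4 in SND1 held when any 1 array was left out, and the numbers of calls then ranged from 8 to 20 and from 1 to 6.

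At 12 h no member passed the test against wt in either line. In VND6 cells 0 of 35 genes were higher and 0 lower than in wt, where 11% and 16% of all tested probe sets were called, and 1 gene differed at an unadjusted p under 0.05. In SND1 cells 0 were higher and 0 lower, against 8.91% and 3.86%, and 6 differed at an unadjusted p under 0.05. The median difference was -0.09 in VND6 (range -0.56 to 0.74) and -0.25 in SND1 (-0.72 to 0.66), beside -0.21 and -0.12 over all tested probe sets. The SND1 differences were nonetheless mostly downward: 33 of 35 were below 0, and every SND1 array lay below every wt array for 17 genes (23.4% of all tested probe sets), against 2 genes in VND6 (27.2%). With the replicate number as a block, 2 genes passed in SND1, AT2G32060 (S12, -0.72, adjusted p = 0.0382; 0.0763 without the block) and AT5G09510 (S15, -0.49, adjusted p = 0.0476; 0.0651 without). Over all tested probe sets 2615 were called in SND1 with the block, in either direction, beside 2006 without it. AT2G32060 was also the lowest member in VND6 (-0.56, SE 0.26, adjusted p = 0.117). AT2G39590 went the other way in both lines, at 0.73 in VND6 and 0.66 in SND1 (SE 0.39, adjusted p = 0.174 and 0.289). AT5G39850 was at -0.65 in SND1 (adjusted p = 0.105), with no overlap with wt. AT5G59240 and AT4G30800 were at -0.47 and -0.39 in VND6 (adjusted p = 0.345 and 0.317). A p that misses the threshold at n = 3 in a limma fit leaves room for differences of the size of these standard errors.

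**Figure D5:**
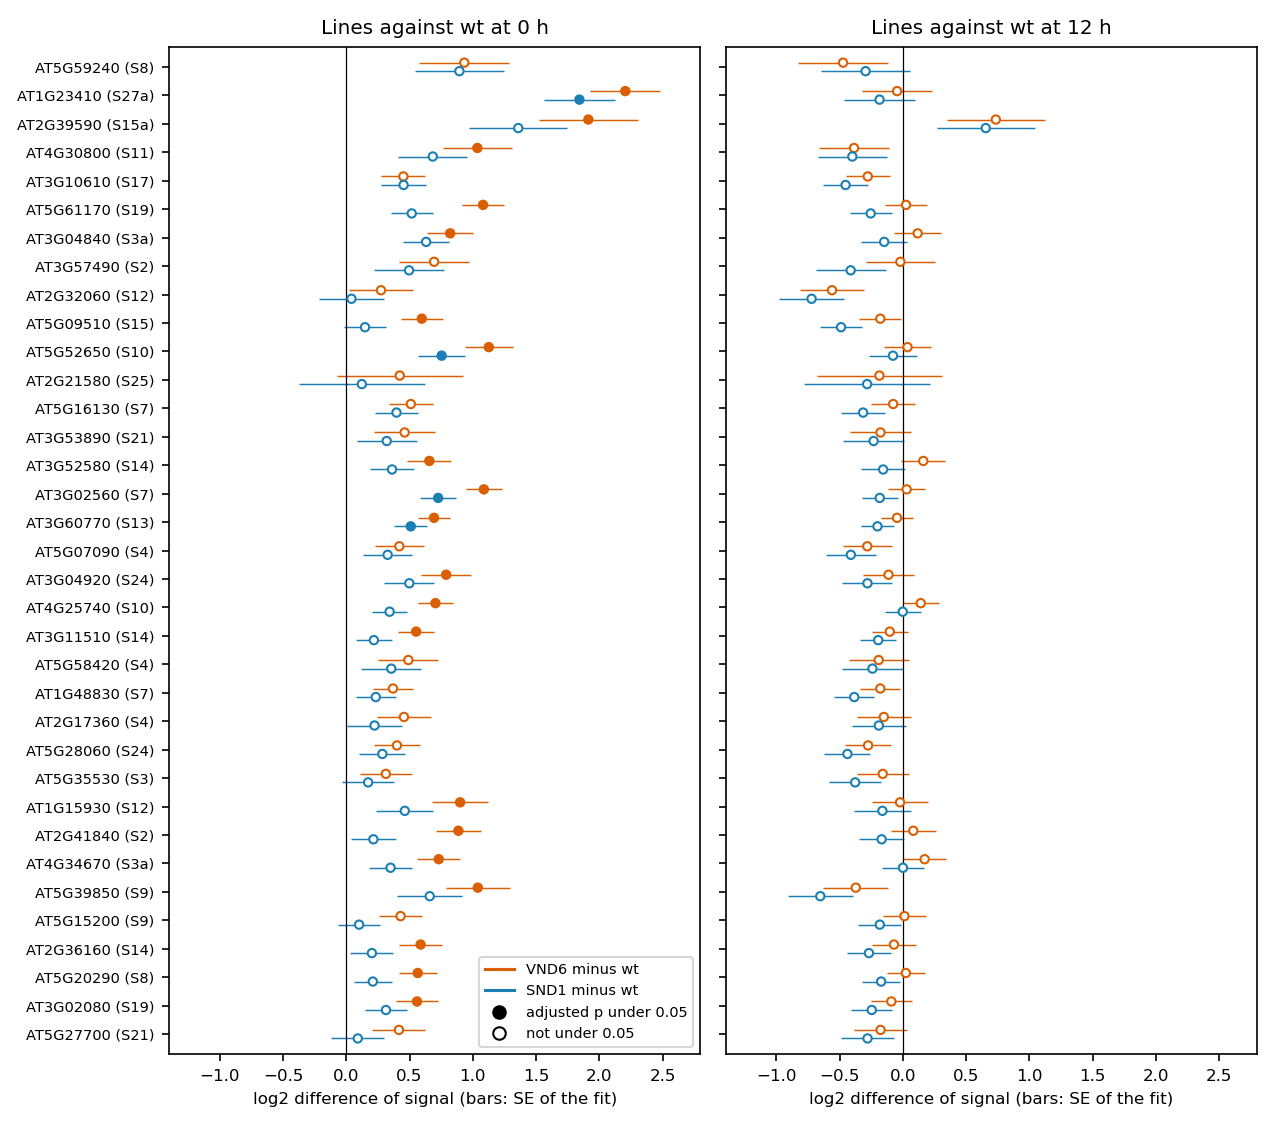
Log2 difference of VND6 and SND1 cells from wt at 0 h (left) and at 12 h (right) for each of the 35 genes (rows, in the order of their mean change); points are fitted differences from 3 arrays a group, bars standard errors, and filled points passed an adjusted p of 0.05. At 0 h all points lie above 0, with AT1G23410 farthest out, and at 12 h no point is filled and AT2G39590 is the member farthest above 0.

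The change over 12 h was then compared between the lines directly, as the difference of the 12 h minus 0 h changes. It was larger in wt than in VND6 and than in SND1 for all 35 genes. For VND6 the difference passed the test in 11 genes, all lower than wt, and 0 were higher, where 7.99% of all tested probe sets were lower and 5.84% higher; with the replicate number as a block 17 passed. For SND1 5 were lower and 0 higher, against 2.4% and 3.47%; with the replicate number as a block 7 passed, the additional genes being AT3G04840 (S3a, adjusted p = 0.0409) and AT5G52650 (S10, adjusted p = 0.0269). At an unadjusted p under 0.05 the numbers were 26 and 18, with no share of all tested probe sets taken at that threshold. The median difference was -0.70 in VND6 (range -2.25 to -0.42) and -0.64 in SND1 (-2.03 to -0.28), beside -0.22 and -0.20 over all tested probe sets. Both use the same wt arrays, so they are not independent, and the 0 h arrays of the earlier comparison enter here too. All of these calls were lost when replicates 2 and 3 were averaged, and 32 and 20 passed with replicates 2 and 3 only. Calls over all tested probe sets, in either direction, moved as well. There were 2174 for VND6 and 923 for SND1 in the main fit, and 126 and 62 with the averaging. With replicates 2 and 3 only there were 7585 and 5469, and with the replicate block 2842 and 1333.

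AT1G23410 showed the largest difference from wt in both lines, -2.25 in VND6 (SE 0.39, adjusted p = 0.00171) and -2.03 in SND1 (adjusted p = 0.00625). Its 12 h signals overlapped between the lines, and its 0 h signals did not, as given above. AT3G02560 (S7) differed by -1.06 (SE 0.20, adjusted p = 0.00341) and -0.91 (adjusted p = 0.0154). These were the 2 genes whose calls held in both lines when any 1 array was left out. AT5G39850 (S9) differed by -1.41 (SE 0.36, adjusted p = 0.0179) and -1.31 (adjusted p = 0.0431), and lost the call in 2 and 10 of the 12 omissions. AT3G60770 (S13) differed by -0.74 (adjusted p = 0.015) and -0.71 (adjusted p = 0.0318), and lost the SND1 call in 9 omissions. In VND6 the calls of AT5G52650 (S10, -1.09) and AT5G61170 (S19, -1.06) held in every omission of 1 array. AT4G30800 (S11, -1.42, adjusted p = 0.0243) lost its VND6 call in 4 omissions, and in SND1 it was at -1.08 (adjusted p = 0.112). AT5G59240 (S8) had differences of -1.41 and -1.19 with a larger standard error of 0.50, and neither passed (adjusted p = 0.0734 and 0.174); with the replicate block the VND6 difference passed (adjusted p = 0.0326).

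No member passed the test between VND6 and SND1 cells in its change over 12 h. Of the 35 genes, 0 were higher and 0 lower in VND6 than in SND1, where 0.439% and 0.305% of all tested probe sets were called, and 0 differed at an unadjusted p under 0.05. The differences ran from -0.47 to 0.20, with a median of -0.14 beside -0.04 over all tested probe sets. The largest were those of AT2G39590 (-0.47, SE 0.55, adjusted p = 0.995), AT2G41840 (-0.42, SE 0.25, adjusted p = 0.81), AT4G30800 (-0.34, SE 0.39, adjusted p = 0.992) and AT1G15930 (-0.30, SE 0.32, adjusted p = 0.979). With replicates 2 and 3 only, 3 genes passed, all lower in VND6. That setting called 2586 of all tested probe sets in either direction, beside 117 in the main fit.

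Genes that work with the small subunit were read for comparison. Of the large-subunit (60S) ribosomal protein genes, 78 had a 1-gene probe set and were tested. Of these, 76 rose in wt, 70 in VND6 and 71 in SND1 cells, where 32.1%, 28.8% and 27.8% of all tested probe sets rose. None of the 78 was called lower in any line, though 1 had a negative log2 change in VND6 (-0.019) and 1 in SND1 (-1.1). Their median log2 changes were 2.05, 1.39 and 1.44, beside 2.04, 1.28 and 1.40 for the 35 small-subunit genes. At 0 h 22 of the 78 were higher in VND6 than in wt and 1 in SND1, where 4.8% and 1.88% of all tested probe sets were higher. The single SND1 call was not read as a result about these genes. A smaller change than wt was called for 15 in VND6 and 5 in SND1, against 7.99% and 2.4% of all tested probe sets. At 12 h 4 of the 78 were lower than wt in VND6 and 5 in SND1, where 16% and 3.86% of all tested probe sets were lower, and none were higher; the large- and small-subunit genes were not tested against each other. Outside the list of 60, 10 further small-subunit genes had a 1-gene probe set, and 8 of them passed the filter and were tested. Of the 8, 7 rose in wt, 7 in VND6 and 6 in SND1 cells, where 32.1%, 28.8% and 27.8% of all tested probe sets rose. AT5G09490 and AT5G63070 were too dim to be tested, with group means of 7.61 to 22.1 and 6.64 to 33.1. Among the 8 tested genes AT5G15520 (S19) rose by 2.72, 1.72 and 1.86 and AT3G56340 (S26, at the mRNA exit) by 1.91, 1.38 and 1.44. AT3G47370 (S20) rose by 2.64 in wt, 1.71 in VND6 and 1.77 in SND1 cells. AT5G09500 (S15) did not pass in any line (0.18, 0.06 and -0.11).

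Of the listed ribosome assembly genes 6 were tested, too few to stand for the group. All 6 rose in wt and VND6 cells and 5 in SND1 cells, where 32.1%, 28.8% and 27.8% of all tested probe sets rose, with medians of 2.83, 2.05 and 1.83. AT3G12860, a NOP56 homologue of the nucleolar particle that guides methylation of ribosomal RNA, rose by 4.01, 2.22 and 2.98, and AT1G13160 by 3.34, 2.90 and 2.37. Of the partners of the growth kinase TOR, which is known to act on ribosome production, RAPTOR1 (AT3G08850) fell in VND6 (-0.92, adjusted p = 0.0365) and SND1 (-1.001, adjusted p = 0.0261) and was at -0.72 in wt (adjusted p = 0.0961), and RAPTOR2 did not pass in any line. For the small subunit of the plastid ribosome 2 genes were tested, and both fell in all lines, where 22%, 24.7% and 22.8% of all tested probe sets fell in wt, VND6 and SND1. The changes of AT1G64510 were -1.17, -1.88 and -1.65 and those of AT3G13120 were -0.66, -1.39 and -1.44.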

How the data were processed

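Biotin-labelled RNA from 18 samples was hybridised to Affymetrix GeneChip arrays, 3 per group. The deposited values are array signals, an intensity on a linear scale; GCOS is named in the submitters' processing notes, with no version or settings. The 2% trimmed mean of the deposited signals was 500.0 to 500.1 on every array. No further scaling was applied. Signals were taken as log2(signal + 4.32), the 10th percentile of all values, and 64 control probe sets and probe sets at or above the 40th percentile of the array on fewer than 3 arrays were left out, which left 15715 of 22810. limma 3.58.1 in R 4.3.3 (lmFit and eBayes with an intensity trend) was fitted to the 6 groups over all tested probe sets, with Benjamini-Hochberg adjustment over all of them and a threshold of 0.05. The fit and the paralogue test were tried on simulated data with independent noise on every array. The likeness of replicates 2 and 3 was not simulated, so the trial does not show how the tests behave under it.

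The members and lists were chosen with earlier results of these data known. Array values or, for some genes, changes or 0 h values alone are given for the 8 largest and 6 smallest mean changes, for the 4 largest differences in each comparison between lines, for the genes of the 6 families most and 3 least unequal within the family, and for members near background; AT2G21580 was added after its values were seen. Loci were matched to 1-gene probe sets through the platform annotation, and all 60 are in the RefSeq gene table (TAIR10.1), used for names only. No sequence of the genes or promoters was used here, so the planned comparisons of paralogue identity and promoter motifs were not run.

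Replicates with the same number deviated together between the times of each line (correlations 0.188 to 0.380 over probe sets), and between wt and SND1 at 0 h and 12 h (0.228 to 0.486). Differently numbered replicates reached 0.29 between the wt times, and 0.338 and 0.293 between wt and SND1 at 0 h and 12 h. Those values lay above the lowest for equal numbers, at 0.255, 0.304 and 0.228, so pairing is not established there. Within VND6 and within SND1 they stayed below it (0.196 against 0.205, and 0.173 against 0.188). The main fit and the main paralogue permutation used no pairing by number. The numbers entered only in the replicate block alternative. There the smallest possible exact permutation p of a paralogue pair was 0.00391, and 16 pairs passed. Between wt and VND6 at a time the lowest correlation for equal numbers was 0.023, so pairing was not borne out there. The block alternative was still fitted to all 18 arrays. Alternatives covered pseudocount, filter, quantile normalization, the intensity trend, the arrays in the fit, the replicate block, and leaving out or averaging replicates.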

Additional observations from a re-analysis of the deposited data

Results flagged for a closer look

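In 16 comparisons the change of a small-subunit gene over 12 h differed between a transgenic line and wt by the test of the difference itself (limma, 12 h minus 0 h in the line less the same in wt, adjusted p under 0.05 over all tested probe sets, 3 arrays a group). All 16 were smaller changes than in wt. Of all tested probe sets 7.99% in VND6 and 2.4% in SND1 were called lower in this test. In VND6 the differences were -2.251 for AT1G23410 (S27a), -1.422 for AT4G30800 (S11), -1.412 for AT5G39850 (S9), -1.09 for AT5G52650 (S10), -1.057 for AT3G02560 (S7), -1.056 for AT5G61170 (S19), -0.902 for AT3G04920 (S24), -0.803 for AT2G41840 (S2), -0.775 for AT5G09510 (S15), -0.739 for AT3G60770 (S13) and -0.655 for AT3G11510 (S14). In SND1 they were -2.027 for AT1G23410, -1.312 for AT5G39850, -0.908 for AT3G02560, -0.906 for AT3G10610 (S17) and -0.71 for AT3G60770. Of these genes, 11 of 11 in VND6 and 3 of 5 in SND1 were called higher than wt at 0 h. AT5G39850 (adjusted p = 0.219) and AT3G10610 (adjusted p = 0.218) were not in SND1. Among all 35 members 20 and 4 were called higher at 0 h, and among all tested probe sets 4.8% and 1.88%. None passed against wt at 12 h. The 0 h arrays also enter the difference of the changes, and a higher 0 h signal in a line lowers its change. The 0 h counts are therefore not independent of that difference and are no separate result. The VND6 and SND1 comparisons share the wt arrays.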

How the results depend on the processing

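The numbers of genes that rose over 12 h stayed within 1.5 times under every alternative run: 34 to 35 in wt, 26 to 32 in VND6 and 26 to 34 in SND1, and no change that was called reversed its sign. The comparisons with wt depended on how the spread was estimated. Beside 11 members with a smaller change than wt in VND6, 7 passed with no filter, 7 with no intensity trend, 4 with only the arrays compared, 17 under quantile normalization and 17 with the replicate block. Beside 5 in SND1, 2 passed with no filter and 2 with no intensity trend. With replicates 2 and 3 averaged the numbers were 0 in VND6 and 0 in SND1, from fewer samples, and with replicates 2 and 3 only they were 32 and 20. Over all tested probe sets the main fit called 2174 in VND6 and 923 in SND1, in either direction. Averaging called 126 and 62, and replicates 2 and 3 only called 7585 and 5469. With no filter there were 1778 and 704, and with no intensity trend 2059 and 879. For VND6, only the arrays compared gave 1049, quantile normalization 2146 and the replicate block 2842. Leaving out 1 array gave 5 to 24 in VND6, with 24 without VND6 replicate 1 at 12 h, 5 without replicate 2 or 3 of that group, 6 without either the second VND6 array at 0 h or the second wt array at 12 h, and 7 without wt replicate 3 at 0 h. In SND1 it gave 2 to 5, with 2 or 3 without any array of wt at 12 h or SND1 at 12 h and 2 without SND1 replicate 2 or 3 at 0 h. Without VND6 replicate 1 at 12 h, 3437 of all tested probe sets were called for VND6, and 1099 and 1145 without replicate 2 or 3. Between VND6 and SND1, 3 members passed with replicates 2 and 3 only, and 0 otherwise. Over all tested probe sets that setting called 2586, beside 117 in the main fit. At 0 h, beside 20 members higher in VND6, 0 passed with only the arrays compared, 0 with replicates averaged, and 8 to 20 without 1 array (8 and 12 without VND6 replicates 2 and 3, 12 and 11 without wt replicates 2 and 3). Beside 4 in SND1, 2 passed with no filter, 2 with no intensity trend, 0 with only the arrays compared, 0 with replicates averaged, 19 with replicates 2 and 3 only, and 1 to 6 without 1 array (6 without wt replicate 1, 1 without wt replicate 2 or 3 or SND1 replicate 2, and 2 without SND1 replicate 3). At 12 h, where no member passed, replicates 2 and 3 only gave 10 in VND6 and 7 in SND1. Over all 15715 tested probe sets that setting called 9614 and 7328 in either direction, beside 4253 and 2006 in the main fit. Only the arrays compared gave 6 members in SND1, where 3457 probe sets were called. The replicate block gave 2 members in SND1, where 2615 probe sets were called. Leaving out 1 array gave 0 to 1 members in each line. The cause of these differences was not tested, for the averaging or for the other alternatives. Of the 18 paralogue pairs 15 passed with replicates 2 and 3 only, where AT5G16130 less AT3G02560 was 0.254 with an adjusted p of 0.167 by the exact permutation test, and 16 under the other alternatives.

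With the replicate number as a block, 31 members rose in VND6 and 33 in SND1, beside 30 and 32; 7 had a smaller change than wt in SND1, beside 5; and at 0 h 21 were higher in VND6 and 5 in SND1, beside 20 and 4. The pairing was not borne out between wt and VND6 at a given time. A choice among several probe sets per gene could not be varied, since each member had 1. Replicate 1 stood apart from replicates 2 and 3, and 3 arrays a group limit the precision.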
